A study of Schizosaccharomyces pombe with 3 samples.

Results

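*las1*, *grc3* and *ipi1* are 3 of the 36 fission yeast (*Schizosaccharomyces pombe*) genes, mostly tied to silencing or RNA processing, whose expression was listed with the study. Each was placed on the array at the run of every other numbered probe whose mean in the deposited table equals the listed values of *dhp1-1* replicate 1 and *din1Δ*. The list served to find probes only. *las1* took 19 probes, *grc3* 5 and *ipi1* 19, out of 174063 numbered probes, and each matched 1 run, as did 26 of the 36 genes.

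In budding yeast, Las1 is an endonuclease that cuts the second internal transcribed spacer of the ribosomal RNA precursor, and its partner Grc3 is a polynucleotide kinase that phosphorylates the new 5′ end. The exonuclease Rat1 and its partner Rai1 then trim the spacer from that end. Ipi1 is a subunit of the Rix1 complex, which acts on the precursor of the large ribosomal subunit. In fission yeast, Dhp1 and Din1 are the counterparts of Rat1 and Rai1, and the Rix1 complex with Grc3 and Las1 is also found at heterochromatin. Rat1 and its relatives have a further role at the ends of genes, where they degrade the RNA that polymerase II makes past the cleavage site.

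Expression was measured on 3 two-colour tiling arrays that read both DNA strands, with ribosomal RNA depleted. The *dhp1-1* strain p1088 was compared with wildtype p1087 on 2 arrays of biological replicates, and the *din1Δ* strain p1044 with wildtype p344 on 1 array. The *dhp1-1* allele is temperature-sensitive and lacks part of its carboxyl terminus, replaced in part by *ura4*+, and in *din1Δ* the gene is deleted. All cells grew at the permissive 30°C, so the values concern a partly active Dhp1. Mutant RNA always carried Cy5 and wildtype RNA always Cy3. A dye effect therefore cannot be told apart from a strain effect, and the difference between the mutants includes any difference between their wildtype strains. The *din1Δ* array lay on the slide of *dhp1-1* replicate 1, and replicate 2 had a different slide. Neither *dhp1* nor *din1* is among the placed genes, so the labels were not checked through them.

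Between 67.2% and 71.7% of the numbered probes per array were well above background in wildtype, and between 66.1% and 84.3% in the mutant, highest on *dhp1-1* replicate 1. Ratios are log2(mutant/wildtype) after normexp background correction and loess, averaged over the probes of a gene. *dhp1-1* was tested with limma over 8743 features, namely 8704 same-strand tiles of 20 probes, the 36 genes and the stretches opposite the 3 genes, with Benjamini-Hochberg adjustment. *din1Δ* has 1 array, so it has a value without a replicate. Ratios were lower on replicate 2 than on replicate 1 for 23 of the 26 genes placed by 1 run, *las1*, *grc3* and *ipi1* included.

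The messages of all 3 genes stayed close to their wildtype level in *dhp1-1*. The mean ratio corresponded to 0.868 times wildtype for *las1*, 0.839 times for *grc3* and 1.09 times for *ipi1*, and only *grc3* passed an adjusted p of 0.05. In *din1Δ* the order was the same, with *grc3* lowest at 0.939 times wildtype, *las1* at 1.16 times and *ipi1* highest at 1.48 times. The larger differences lay beside the messages: RNA opposite *las1* and RNA past the 3′ end of *ipi1* were higher in *dhp1-1* than in wildtype.

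**Figure D1:**
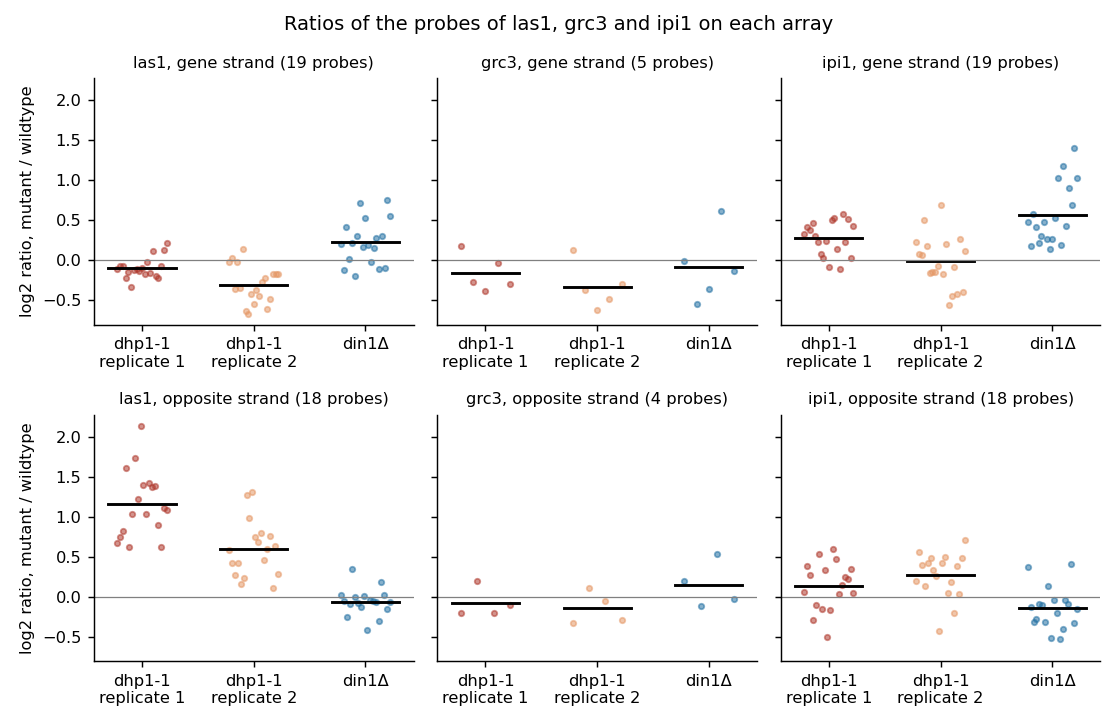
Each point is the log2(mutant/wildtype) ratio of 1 probe of *las1*, *grc3* or *ipi1*, on the strand of the gene (top) or the opposite strand (bottom), by array, and the bars are the means over probes. On the strand of the gene no mean exceeds 0.56, while opposite *las1* the 2 *dhp1-1* arrays have means of 1.16 and 0.60 and *din1Δ* a mean of -0.06.

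*las1*, the gene of the endonuclease, lies on chromosome II as SPBC16C6.12C, between *rpl3201* and *sec27*. Its log2 ratio was -0.10 in *dhp1-1* replicate 1, -0.31 in replicate 2 and 0.22 in *din1Δ*. Both *dhp1-1* arrays lay below wildtype and the *din1Δ* array above it. A *din1Δ* value above both *dhp1-1* values was common, at 35.3% of all tiles. It was seen at 46.5% of tiles with a wildtype log2 intensity of at least 9.19 on every array. This order alone therefore sets no gene apart. The *dhp1-1* mean was -0.20 ± 0.15 (SD, n = 2; SE 0.0907), which did not pass the test (limma, adjusted p = 0.10). The difference of *dhp1-1* from *din1Δ* was -0.42 (SE 0.157), also short of the threshold (limma, adjusted p = 0.0803).

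The 19 probes of *las1* were well above background in both channels of every array. In *dhp1-1* replicate 1 they ran from -0.34 to 0.21 with a median of -0.11, and 16 of 19 were below 0. In replicate 2 they ran from -0.67 to 0.14 with a median of -0.35, and 17 of 19 were below 0. Most probes thus lay slightly below 0 on both arrays, and no probe passed 1.6-fold on either. In *din1Δ* the probes ran from -0.20 to 0.75 with a median of 0.20, 14 of 19 were above 0 and 2 passed 1.6-fold. The 9 probes nearest the 5′ end and the 9 nearest the 3′ end had about the same mean in *din1Δ*, 0.22 and 0.19.

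*grc3*, the gene of the kinase partner, lies on chromosome III as SPCC830.03 and overlaps *mug128* and a noncoding RNA, SPNCRNA.7660. Its log2 ratio was -0.17 in *dhp1-1* replicate 1, -0.34 in replicate 2 and -0.09 in *din1Δ*. All 3 arrays were below wildtype, with the *din1Δ* value above both *dhp1-1* values. The *dhp1-1* mean of -0.25 ± 0.12 (SD, n = 2; SE 0.0897) passed the test (limma, adjusted p = 0.0378). The difference from *din1Δ* was -0.16 (SE 0.155; limma, adjusted p = 0.581).

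*grc3* rests on 5 probes, because the array is sparser in the section that holds it. In *dhp1-1* replicate 1 they read 0.17, -0.28, -0.39, -0.04 and -0.30 from the 5′ end. Replicate 2 read 0.12, -0.38, -0.63, -0.49 and -0.30. The first probe was above 0 and the other 4 below 0 on both arrays, and none passed 1.6-fold. The last probe was not well above background in either channel of any array. In *din1Δ* the same probes read -0.01, -0.55, -0.36, 0.61 and -0.14, so 1 probe stood apart from the other 4. The call for *grc3* was lost in 7 of 9 alternative settings with a test, where the adjusted p reached 0.417, while the value stayed between -0.37 and -0.17.

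*ipi1*, the gene of the Rix1 complex subunit, lies on chromosome III as SPCC1393.06C, between *ers1* and *mug4*. It overlaps both of them and a noncoding RNA, SPNCRNA.7036. Its log2 ratio was 0.27 in *dhp1-1* replicate 1, -0.02 in replicate 2 and 0.56 in *din1Δ*. The *dhp1-1* arrays lay on either side of wildtype, and *din1Δ* was above both. The *dhp1-1* mean of 0.13 ± 0.21 (SD, n = 2; SE 0.0933) did not pass the test (limma, adjusted p = 0.342). The difference of *dhp1-1* from *din1Δ* was -0.44 (SE 0.162; limma, adjusted p = 0.0798), and -0.29 within the slide that held replicate 1 and *din1Δ*.

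The probes of *ipi1* differed from each other more than those of *las1*. In *dhp1-1* replicate 1 they ran from -0.11 to 0.57 with a median of 0.30, and 17 of 19 were above 0. In replicate 2 they ran from -0.56 to 0.69 with a median of -0.07, and 9 of 19 were above 0. In *din1Δ* all 19 probes were above 0, from 0.14 to 1.40 with a median of 0.48, and 6 passed 1.6-fold. These 6 were all among the 9 probes nearest the 5′ end, which averaged 0.82, against 0.34 for the 9 nearest the 3′ end. Of the 6, the probe at 1.17 was not well above background in wildtype on the *din1Δ* array (log2 intensity 7.02). The 5′ probes were also dimmer, with a mean wildtype log2 intensity of 10.2 against 11.9 in *din1Δ*, and *mug4*, named as on the same strand, overlaps *ipi1* on its 5′ side. The part of either in the 5′ values was not tested. In *dhp1-1* the 5′ and 3′ probes averaged 0.31 and 0.27 on replicate 1, and -0.17 and 0.06 on replicate 2.

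Of the 3 genes, 1 was called lower in *dhp1-1* and 0 higher. Over all features 10.4% were called lower and 18.8% higher. Among the 2800 tiles whose wildtype channel was at least as bright on every array as the dimmest of the 3 genes (log2 intensity 9.19), 17.8% were called lower. These bright tiles had median ratios of 0.01, -0.06 and 0.05 on *dhp1-1* replicate 1, replicate 2 and *din1Δ*. Against them, *las1* was higher than 33.1% of tiles on replicate 1 and 14.7% on replicate 2, and *grc3* than 24.1% and 12.2%. *ipi1* was higher than 81.1% and 57.7% of the bright tiles on these arrays, and than 97.6% in *din1Δ*. For the difference between the mutants, 0 of the 3 genes were called by limma (las1 and ipi1 had an unadjusted p of 0.0135 and 0.0134), against 4.61% of features called lower and 8.78% called higher in *dhp1-1*.

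The Rix1 complex and its partners hold 2 further genes of the list, *rix1*, which gives the complex its name, and *crb3*, another subunit. *rix1* had ratios of 0.11, -0.17 and 0.54 on *dhp1-1* replicate 1, replicate 2 and *din1Δ*, and *crb3*, placed by 3 probes, had -0.22, -0.36 and 0.39. Neither was past 1.6-fold on any array. Of the 5 genes, *grc3* and *crb3* were called lower in *dhp1-1* (limma, adjusted p = 0.0378 and 0.0184) and none higher. Of the 26 genes placed by 1 run, these 2 included, 7 were called lower and 1 higher. The 5 genes had a median of -0.20 and the 26 genes -0.12. The *din1Δ* value was above both *dhp1-1* values for 5 of 5 genes and for 17 of the 26, against 35.3% of all tiles and 46.5% of the bright tiles. *rix1* and *crb3* were called lower in *dhp1-1* than in *din1Δ*, by differences of -0.57 (SE 0.161; limma, adjusted p = 0.0218) and -0.68 (SE 0.154; limma, adjusted p = 0.00488), as were 5 of the 26 genes, these 2 included. In *din1Δ* the 5 genes had a median of 0.39 and the 26 genes 0.09, and *ipi1* and *rix1* had the highest values of the 26.

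**Figure D2:**
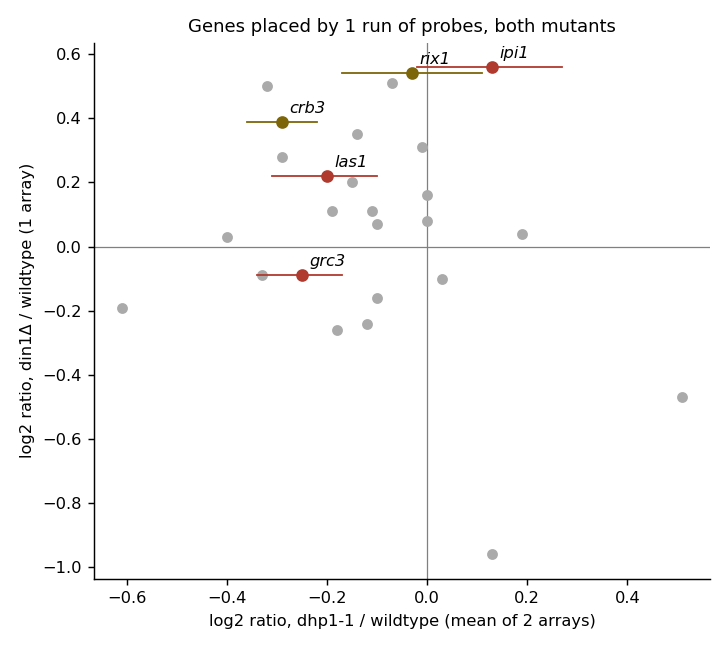
Each point is a gene placed by 1 run of probes, with its mean log2 ratio over 2 *dhp1-1* arrays on the horizontal axis and its log2 ratio on the 1 *din1Δ* array on the vertical axis. Horizontal bars join the 2 *dhp1-1* replicates. *ipi1* (0.56) and *rix1* (0.54) are at the top of the *din1Δ* axis, and *grc3* (-0.09) is the 1 gene of the Rix1 group below 0 on it.

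The genes most like each member were sought among the 20 other genes placed by 1 run of at least 5 probes, by the Euclidean distance of the 3 log2 ratios. *las1* was nearest to *cdc20* (distance 0.08) and *mit1* (0.11). *grc3* was nearest to *dcr1*, with ratios of -0.27, -0.39 and -0.09 (distance 0.12), and then to *mit1* (0.23). *ipi1* was nearest to *rix1* (0.22) and *chp2* (0.29). *rix1* and *chp2* read 0.54 and 0.51 in *din1Δ*, close to *ipi1*, and were lower than it on both *dhp1-1* arrays. With 3 arrays, such likeness is a description only.

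On the strand opposite *las1*, *dhp1-1* had more RNA than wildtype. The mean over the 18 interleaved probes was 1.16 on replicate 1 and 0.60 on replicate 2, against -0.06 in *din1Δ*. All 18 probes were above 0 on both *dhp1-1* arrays, from 0.62 to 2.13 on replicate 1 and from 0.11 to 1.31 on replicate 2, with 15 and 7 of them past 1.6-fold. In *din1Δ* they ran from -0.42 to 0.35, 12 of 18 were below 0 and 0 passed 1.6-fold. The *dhp1-1* mean of 0.88 ± 0.40 (SD, n = 2; SE 0.107), or 1.84-fold, passed the test (limma, adjusted p = 1.53e-06), and so did the difference from *din1Δ* of 0.94 (SE 0.185; limma, adjusted p = 0.00152).

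The stretch was dim in wildtype. Of the 18 probes, 7, 8 and 5 were well above background in wildtype on *dhp1-1* replicate 1, replicate 2 and *din1Δ*, and 18, 13 and 3 in the mutant. The *dhp1-1* RNA was thus above background at probes where wildtype RNA was not. At 3 probes the mutant was well above background on both *dhp1-1* arrays and wildtype on neither. There the mean *dhp1-1* signal was 3.3, 2.16 and 1.88 times the wildtype signal. These probes were picked by that filter, which favours a higher mutant signal, so the values are a description and not lower bounds. Among the 3430 tiles that were as dim as the stretches opposite the 3 genes, or dimmer, 19.6% were called higher in *dhp1-1*. The stretch opposite *las1* was higher than 99.1% of these dim tiles on replicate 1, 95.7% on replicate 2 and 35.7% in *din1Δ*. Its size depended on the processing, from 0.51 over the 2 probes above background in both channels of every array to 1.51 with the ratio of the scanner software. The call was lost in the deposited table (limma, adjusted p = 0.188), which holds 0 at 9 of the 18 probes on replicate 2.

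**Figure D3:**
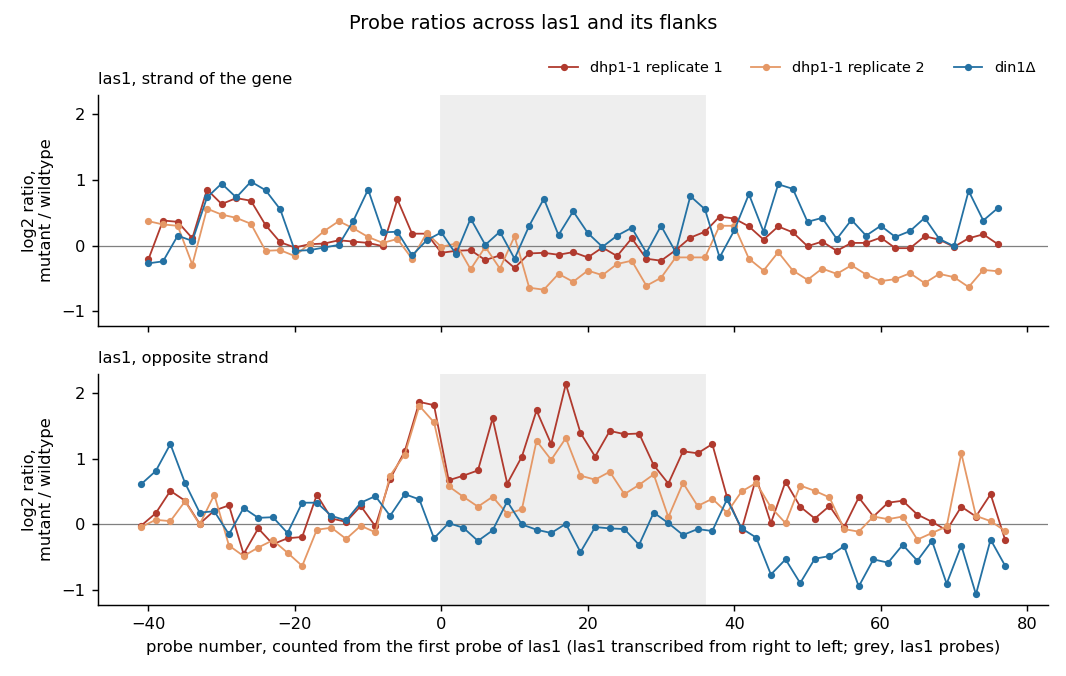
Log2(mutant/wildtype) ratios of single probes are plotted against the probe number counted from the first probe of *las1*, on its own strand (top) and on the opposite strand (bottom), with 1 line per array and the *las1* probes in grey. On the opposite strand both *dhp1-1* lines rise just left of *las1*, to 1.86 and 1.80, and stay above 0 across the grey region, while the *din1Δ* line stays near 0.

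Probes of the opposite strand were also raised outside *las1*. In gene order *rpl3201*, which encodes a ribosomal protein, comes before *las1* and is named as on the other strand, so that both genes are transcribed toward each other. In its place on the opposite strand lay 5 very bright probes, with a wildtype log2 intensity from 15.5 to 16.3 and ratios between -0.22 and 0.45 on all 3 arrays. The next 4 probes toward *las1* read 0.69, 1.11, 1.86 and 1.81 on *dhp1-1* replicate 1, and 0.74, 1.06, 1.80 and 1.55 on replicate 2. The same 4 probes read 0.13, 0.46, 0.38 and -0.21 in *din1Δ*. The raised *dhp1-1* probes thus began where the bright probes end, on the downstream side of *rpl3201* as the gene order gives it. The ratios then dipped. Replicate 1 fell from 1.81 to 0.67 at the first probe across *las1* and later reached 2.13. Replicate 2 fell from 1.55 to 0.58 and then 0.16, and later reached 1.31. Whether the signals before and across *las1* are 1 RNA was not tested. The 4 probes before *las1* were picked after their values were seen, so no test was made on them. Probes outside the placed runs are not assigned to genes here.

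Fixed tiles of 20 probes were tested over the same region, but they are too coarse to show where the raised probes begin. The opposite-strand tile with 13 of its probes across *las1* had ratios of 0.98, 0.57 and -0.16 on *dhp1-1* replicate 1, replicate 2 and *din1Δ*, and a *dhp1-1* mean of 0.78 (SE 0.0985; limma, adjusted p = 2.57e-06). The next tile, beyond the 5′ end of *las1*, read 0.18, 0.06 and -0.40 and was not called in *dhp1-1* (limma, adjusted p = 0.347). The tile before, which holds the 5 bright probes, the 4 raised ones and the first 5 probes across *las1*, read 0.49, 0.20 and 0.13 (limma, adjusted p = 0.0068). Tiles overlap the stretch opposite *las1* and are not independent of it. The gene table also has a noncoding RNA, SPNCRNA.6565, across *las1*, and how its strand lies to these probes was not tested.

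Opposite *grc3* and *ipi1* the values were smaller. The 4 probes opposite *grc3* averaged -0.08, -0.14 and 0.14 on *dhp1-1* replicate 1, replicate 2 and *din1Δ*, and were not called in *dhp1-1* (limma, adjusted p = 0.374). Wildtype RNA was above background at 0 of these 4 probes on any array, so a decrease there was not detectable, and *dhp1-1* RNA at 1 of 4 on replicate 1 and 0 of 4 on replicate 2. The 18 probes opposite *ipi1* averaged 0.14, 0.27 and -0.15. Both *dhp1-1* arrays were above 0 and *din1Δ* below, but the *dhp1-1* mean of 0.20 ± 0.09 (SD, n = 2; SE 0.089) did not pass the test (limma, adjusted p = 0.097). Of the fixed tiles there, the one with 8 probes across the 5′ part of *ipi1* read 0.37, 0.26 and 0.12. It was called higher in *dhp1-1* (limma, adjusted p = 0.0101), as were 19.6% of the dim tiles. The one with 10 probes across *ipi1* read 0.08, 0.14 and 0.00 and was not called (limma, adjusted p = 0.386).

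Past the 3′ end of *ipi1*, on its own strand, RNA was higher in *dhp1-1*. The 20 probes beyond the run averaged 1.08 on replicate 1, 0.69 on replicate 2 and 0.22 in *din1Δ*. On replicate 1 all 20 were above 0, up to 1.62, and 16 were raised past 1.6-fold. On replicate 2, 19 of 20 were above 0, up to 1.38, and 10 were raised past 1.6-fold. In *din1Δ* 16 of 20 were above 0 and 2 were past 1.6-fold. Those 2 were the probes next to *ipi1*, at 0.90 and 0.89, whereas the raised probes of *dhp1-1* reached farther from the gene. Of the 20 probes, 9, 4 and 5 were well above background in wildtype on *dhp1-1* replicate 1, replicate 2 and *din1Δ*, and 20, 14 and 7 in the mutant. At 5 of these probes the mutant was above background on both *dhp1-1* arrays and wildtype on neither. There the mean *dhp1-1* signal was 1.69 to 2.66 times the wildtype signal. That filter again favours a higher mutant signal, so these values add no separate support.

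The window of 20 probes was set after the values had been seen and was not tested. It is covered by 2 fixed tiles. The tile wholly beyond *ipi1* read 0.70, 0.39 and -0.05 on *dhp1-1* replicate 1, replicate 2 and *din1Δ*, a *dhp1-1* mean of 0.54 (SE 0.0942; limma, adjusted p = 0.000125) and a difference from *din1Δ* of 0.59 (SE 0.163; limma, adjusted p = 0.0174). The tile shared by 11 probes of *ipi1* and 9 beyond it read 0.65, 0.39 and 0.35 (limma, adjusted p = 0.000158), and its difference from *din1Δ* was 0.17 (SE 0.16; limma, adjusted p = 0.573). On the opposite strand, where gene order puts *ers1*, the 20 probes averaged 0.14, -0.09 and 0.18. The increase beyond *ipi1* was therefore seen on 1 strand. On the 5′ side of *ipi1* the 20 probes of its strand averaged -0.06, 0.07 and -0.07.

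**Figure D4:**
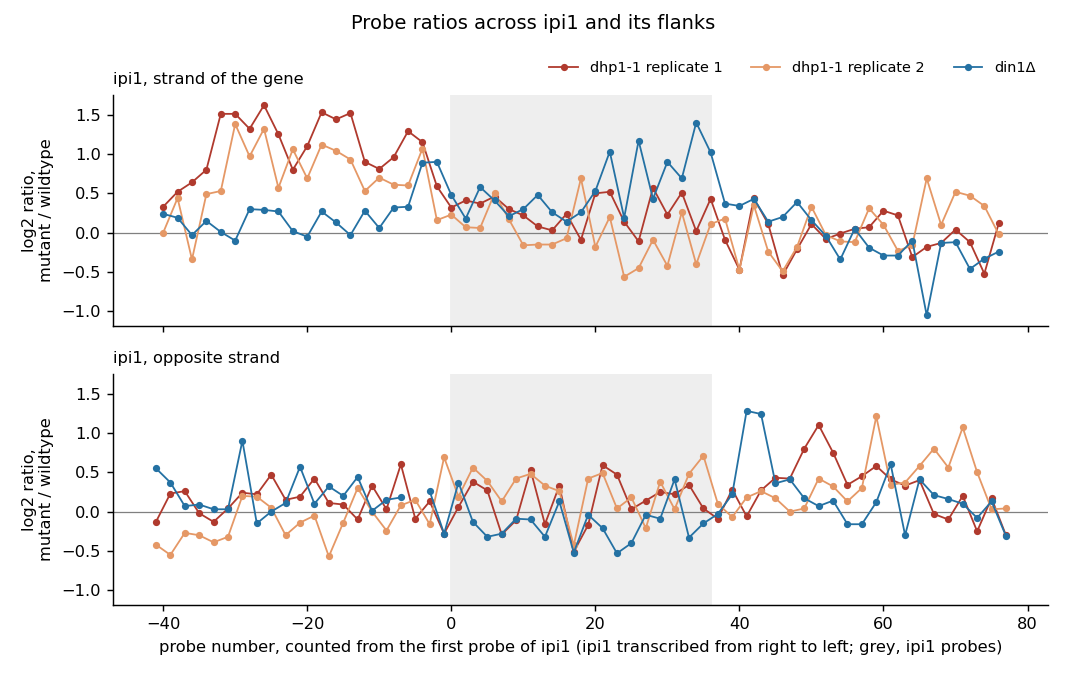
Log2(mutant/wildtype) ratios of single probes are plotted against the probe number counted from the first probe of *ipi1*, on its own strand (top) and on the opposite strand (bottom), with 1 line per array and the *ipi1* probes in grey. *ipi1* is transcribed from right to left, and left of the grey region both *dhp1-1* lines lie above the *din1Δ* line at most probes of the top panel, with means of 1.08 and 0.69 against 0.22.

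The flanks of *las1* and *grc3* on their own strands differed from this. The 20 probes past the 3′ end of *las1* averaged 0.26 and 0.17 in *dhp1-1* and 0.29 in *din1Δ*, so *din1Δ* was above both *dhp1-1* arrays. On the 5′ side of *las1* the 20 probes averaged 0.12, -0.34 and 0.36, with *din1Δ* again highest, so this order was not particular to *las1*. The 20 probes past the 3′ end of *grc3* averaged 0.33, 0.18 and 0.14, with 2, 2 and 3 of them raised past 1.6-fold. On the 5′ side of *grc3* the 20 probes averaged 0.43, 0.35 and 0.19, and the probe highest on both *dhp1-1* arrays read 2.32 on replicate 1, 1.61 on replicate 2 and 0.61 in *din1Δ*, where another probe reached 1.00. That probe and the next, at 1.68, 1.22 and 0.44, follow a bright probe with a wildtype log2 intensity from 12.4 to 13.0. Past the 3′ end, single probes were also high, at 2.24 and 0.68 for one and 1.15 and 1.31 for another on *dhp1-1* replicates 1 and 2. Over the gene itself the *dhp1-1* ratios were at or below 0.17. The same-strand tile that holds *grc3* read 0.31, 0.10 and 0.15 and was not called (limma, adjusted p = 0.0925). In this sparse section 20 probes reach across several genes.

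**Figure D5:**
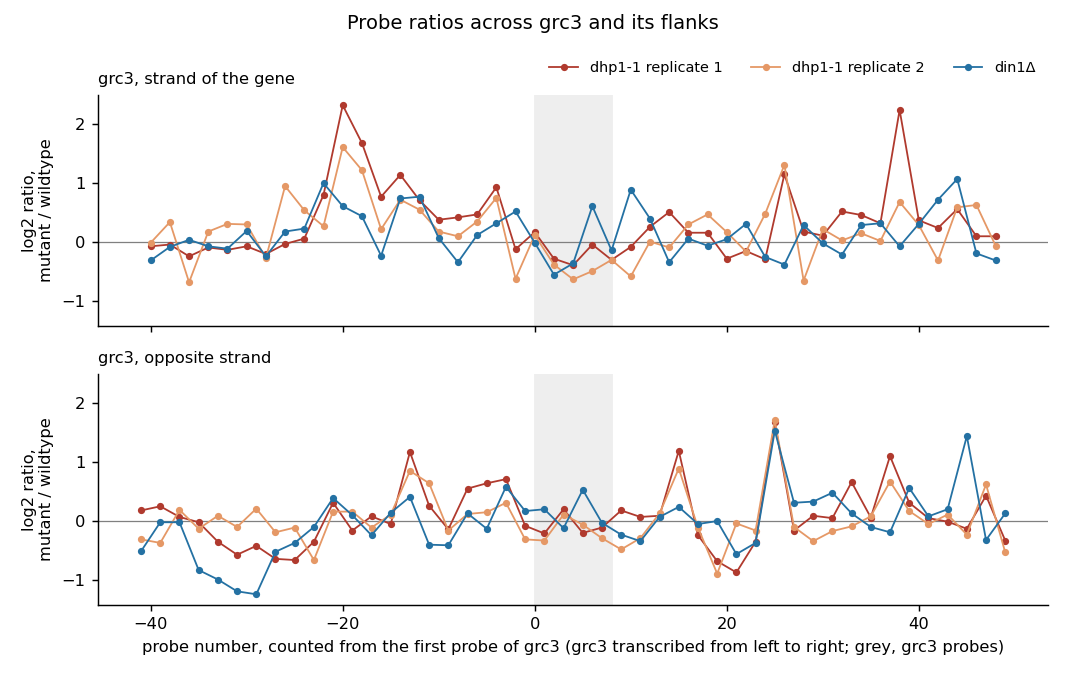
Log2(mutant/wildtype) ratios of single probes are plotted against the probe number counted from the first probe of *grc3*, on its own strand (top) and on the opposite strand (bottom), with 1 line per array and the 5 *grc3* probes in grey. *grc3* is transcribed from left to right. In the top panel the *dhp1-1* lines peak before the gene at 2.32 and 1.61, lie between -0.63 and 0.17 over it, and have single high probes after it, up to 2.24 and 1.31.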

How the data were processed

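Per the file headers, the authors scanned Agilent 2-colour arrays and extracted spots with Agilent Feature Extraction 10.7.3.1. They deposited unnormalized spot and background intensity values, log10 ratios of Cy5 over Cy3 with p-values, flags, and a log2 table. In that deposited log2 table each nonzero value equals the scanner ratio (within 0.0001), and probes with a p-value of 0.05 or more hold 0.

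Local background medians were removed from median spot intensities by normexp (offset 50), and arrays were normalized by loess in limma 3.58.1 (R 4.3.3), without control and outlier spots. Tables used Python 3.11.15 with NumPy 2.4.6 and pandas 2.3.3. Runs were placed within 1e-08 of the listed log2 values, with *dhp1-1* replicate 1 and *din1Δ* only. Odd probe numbers matched the plus strand for 19 of 19 genes in the section of *las1* and *ipi1*, and even numbers for 16 of 17 in that of *grc3*. Probe numbers rose with the gene order of ASM294v3 for 9 of 9 steps between placed genes on chromosome II, and for 2 of 2 and 4 of 4 in the sections of chromosome III. The header and the study name different genome builds, so no coordinates are given.

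lmFit and eBayes used all 3 arrays (1 residual degree of freedom, 20.2 prior), so each error rests mostly on the spread pooled over features, whatever their number of probes. The number of arrays limits the precision. The script was tested on simulated data. All members, the 2 nearest genes of each, and neighbours by position are named. Members and lists were chosen with earlier results of these data known. Alternatives varied background correction, normalization, probe filters, averaging, tile size, slide and replicates.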

Additional observations from a re-analysis of the deposited data

Results flagged for a closer look

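The difference of *dhp1-1* from *din1Δ* passed the test (limma, adjusted p under 0.05 over all features) for the stretch opposite *las1*, at 0.94, and for the genes *rix1*, at -0.57, and *crb3*, at -0.68. It also passed for 4 fixed tiles of 20 probes near the 3 genes. On the strand opposite *las1* these are the tile across it, at 0.94, the tile beyond its 5′ end, at 0.52, where *din1Δ* itself read -0.40, and the tile over *chp2*, at -0.52, where *din1Δ* read 0.48. On the strand of *ipi1* it is the tile beyond its 3′ end, at 0.59. The *din1Δ* side of each is a single array with its own wildtype strain.

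Each array also carries 1800 repeat spots of 300 probes that entered no comparison, and 1 of these probes lies beyond the 3′ end of *ipi1*. Its 6 repeat spots had a median scanner log2 ratio of 2.72 on *dhp1-1* replicate 1 (1.99 to 3.40, SD 0.57) and 1.85 on replicate 2 (1.26 to 2.73, SD 0.51), above 0 at 6 of 6 spots on both. In *din1Δ* the median was 0.11 (0.00 to 0.71, SD 0.29). The numbered spot of the same probe had scanner ratios of 2.64, 1.02 and 0.00, of which 1.02 on replicate 2 is below all 6 repeat spots, and it read 1.51, 0.53 and 0.01 after normexp and loess. The spots of 1 array share its RNA, so their spread is technical.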

How the results depend on the processing

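Of 124 recomputed values, 114 kept their direction and their side of the threshold or, for those with no test, moved by less than 1 SD of the *dhp1-1* replicates. The SD criterion could not fail for values without 1 *dhp1-1* replicate, because leaving out 1 of 2 moves the mean by less than their SD. The slide setting repeats the values without replicate 2. Such values count among the 114 but say nothing about stability. With the deposited log2 table, the *din1Δ* values of *las1*, *grc3* and *ipi1* equal the listed values that were used to find their probes. These *din1Δ* values also count among the 114, but the placement set them, so they are no independent check. The *dhp1-1* replicate 1 part of the *dhp1-1* values of these genes was set in the same way. The decrease of *grc3* in *dhp1-1* lost its call with the ratio of the scanner software (-0.28), the deposited log2 table (-0.22), no background correction (-0.22), median centring (-0.30), probes above background in 1 channel or in both channels (-0.24 in each) and tiles of 10 probes (-0.25). It kept it with the median over probes and without the first and last probe. The increase opposite *las1* lost its call with the deposited log2 table (1.36). The cause was not tested. Without *dhp1-1* replicate 1 or 2, that increase was 0.60 to 1.16, and *las1*, *grc3* and *ipi1* stood at -0.31 to -0.10, -0.34 to -0.17 and -0.02 to 0.27, as values with no test. Among these, *ipi1* turned from 0.13 to -0.02 without replicate 1. The stretch opposite *grc3*, not called at -0.11, was 0.00 in the deposited log2 table and 0.01 without the first and last probe, and had no value with the filters on dim probes. The last matching run was not run as an alternative, because each gene matched 1 run. No paired analysis was possible because *dhp1-1* and *din1Δ* share fewer than 2 replicate numbers.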
